A study of Mus musculus with 11 samples.

Results

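The MS4A (membrane-spanning 4-domains, subfamily A) proteins were examined across 11 mouse B cell lymphomas. Members were chosen by name, as all probe sets annotated to a single gene whose symbol starts with Ms4a, and the rule found 17 probe sets of 12 genes among 12393 genes with such a probe set. Of these 12 genes, 9 had been listed beforehand (Ms4a1, Ms4a2, Ms4a3, Ms4a4b, Ms4a4c, Ms4a4d, Ms4a6b, Ms4a6d and Ms4a7), and the rule added Ms4a6c, Ms4a8a and Ms4a10. The family was selected on signals of these same arrays, so the levels and the lineages they run with are given as a description, with no test. All tumours came from E-mu-BRD2 mice on the FVB background, in which a BRD2 transgene is driven by the immunoglobulin heavy chain enhancer, active in B cells. The study sorted its tumours by disease severity, and total RNA from 6 marginal and 5 transitional lymphomas was hybridised, 1 expression array for each tumour. Another severity class and the B cells with which the design sets the tumours side by side were not analysed here. The tissue from which tumour RNA was taken, the animals' ages and the species of the transgene are not given in the sources used here.

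MS4A genes encode small proteins that cross the membrane several times, and they lie side by side in a cluster that has grown by repeated duplication. Individual members mark particular blood lineages. Ms4a1 encodes CD20, the B cell surface protein targeted by therapeutic antibodies, Ms4a2 the beta chain of the high affinity IgE receptor of mast cells and basophils, and Ms4a3 a protein of granulocyte and monocyte progenitors. Ms4a4b is known from T cells, Ms4a6b is found in T cells among others, and Ms4a7 and Ms4a6d are known from macrophages. In a tumour sample these genes can therefore be read from the malignant B cells or from other cells in the tissue, and fewer cells of a type and less RNA per cell cannot be told apart in such bulk RNA.

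The RefSeq table of assembly GRCm38.p6 holds 21 Ms4a genes, all on chromosome 19, of which 12 were on the array. Ms4a4c and Ms4a4b are neighbours there, at places 14 and 15 in the order along the chromosome, and Ms4a6c and Ms4a6b follow at places 16 and 17. The promoter table (250 bases before to 50 after a start) held 11 windows for 10 of the 12 genes, 2 of them for Ms4a7. Of 55 pairwise local alignments, 2 ran over 100 columns or more, and both joined neighbouring genes. The stretches of Ms4a4b (chr19:11443422-11443603, plus strand) and Ms4a4c (chr19:11407528-11407710, plus strand) aligned over 183 columns with 162 identical, or 88.5%. They are shown because these promoters are so alike while the signals of the genes were not. Capitals mark bases that differ from the neighbour or have no partner in it, and the sequences are RefSeq's, read 5′ to 3′.
Ms4a4b: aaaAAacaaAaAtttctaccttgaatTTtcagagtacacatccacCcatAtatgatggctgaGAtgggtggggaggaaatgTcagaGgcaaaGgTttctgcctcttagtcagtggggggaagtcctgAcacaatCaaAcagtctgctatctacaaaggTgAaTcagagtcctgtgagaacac
Ms4a4c: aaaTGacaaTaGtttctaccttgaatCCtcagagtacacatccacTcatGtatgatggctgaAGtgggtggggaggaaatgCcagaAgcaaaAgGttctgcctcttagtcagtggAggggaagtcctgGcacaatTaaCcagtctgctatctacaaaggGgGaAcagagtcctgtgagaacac

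The second pair, Ms4a6b (chr19:11518311-11518535, plus strand) and Ms4a6c (chr19:11469193-11469417, plus strand), aligned over 232 columns with 188 identical, or 81.0%. The matching stretch lies nearer the start in Ms4a6c (−175 to 49, the base after the 250 upstream ones being 0) than in Ms4a6b (−248 to −24). Capitals have the same meaning.
Ms4a6b: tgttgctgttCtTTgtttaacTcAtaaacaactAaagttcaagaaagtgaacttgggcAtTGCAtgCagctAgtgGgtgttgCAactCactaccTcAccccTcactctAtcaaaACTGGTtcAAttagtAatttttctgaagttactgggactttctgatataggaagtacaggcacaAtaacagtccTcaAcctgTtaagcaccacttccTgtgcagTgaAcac
Ms4a6c: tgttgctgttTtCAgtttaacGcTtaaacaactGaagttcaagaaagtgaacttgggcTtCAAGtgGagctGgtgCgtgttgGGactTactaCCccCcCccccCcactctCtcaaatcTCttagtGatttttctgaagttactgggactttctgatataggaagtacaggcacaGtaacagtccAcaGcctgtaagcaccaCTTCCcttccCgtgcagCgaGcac

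The Ms4a3 promoter (chr19:11640802-11641101, minus strand, 300 bases) is shown for contrast, since this gene stands at the far end of the cluster and its signal ran with a different lineage. Capitals mark a match to TTNNGCAAT, a partial consensus of C/EBP factors, at positions 40 to 48.
Ms4a3: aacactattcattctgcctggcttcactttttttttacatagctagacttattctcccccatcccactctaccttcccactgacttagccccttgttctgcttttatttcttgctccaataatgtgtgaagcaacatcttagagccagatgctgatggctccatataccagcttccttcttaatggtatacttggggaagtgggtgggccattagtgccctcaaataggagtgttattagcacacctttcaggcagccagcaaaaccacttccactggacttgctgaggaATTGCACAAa

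The following motifs were searched on both strands: the octamer ATTTGCAT, the interferon regulatory factor core AANNGAAA, the E-box CAGGTG, the PU.1 consensus AGAGGAAGT, TTNNGCAAT and the TATA box TATAAA. The octamer was found in 1 of 11 family windows and in 1.74% of 32851 windows in the whole table, and the family match lay in Ms4a4c at −170 to −163, upstream of the stretch it shares with Ms4a4b. The TATA box occurred in 1 family window against 13.6% of all, in Ms4a4b at −140 to −135, where it reaches into the shared stretch by its last bases. AANNGAAA was present in 6 of 11 windows against 23.9%, TTNNGCAAT in 1 against 2.18%, CAGGTG in 1 against 20.2% and AGAGGAAGT in 0 against 1.0%. These matches describe letters in a window and say nothing of whether a factor binds.

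Immunoglobulin clonality was oligoclonal in every tumour. The recorded spleen grades were severe for transitional 1 and 2, moderately severe for transitional 4 and 5, moderate for marginal 5 and 6, mild for transitional 3 and for marginal 2 to 4, and marginal for marginal 1. Each array was summarised by 13 lineage scores, where a score is the mean over the marker genes of a list of their log2(signal + 16) deviation from the 11-array mean. Some arrays stood apart. Transitional 4 and 5 had the lowest B cell scores, with −2.26 on transitional 5, against −0.25 to 1.44 on the other 9 arrays, and the highest erythroid scores (2.25 and 1.98). Marginal 1 had the highest granulocyte precursor score (3.93), and transitional 2 the highest stroma and collagen score (4.41) and macrophage score (2.22). The flow cytometry label of marginal 6 lists B220, CD5 and CD11b as positive, and on that array the signal was 6926 for Ptprc, the gene of B220, 104 for Cd5 and 59.6 for Itgam, the gene of CD11b. The Itgam signal was the lowest of the 11 arrays, and 1 array was lower for Cd5. These are transcripts in bulk RNA, from 1 tested probe set per gene, whereas the label concerns protein on cells, so they cannot decide whether it holds. Array medians ran from 98.8 to 151.

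Of the 17 Ms4a probe sets, 11 of 8 genes were among the 13576 tested, the upper 60% by mean signal, and 6 lay below that filter. Signals of different probe sets depend on their probes, so each gene is compared only with itself across arrays. In the plot of all 17 probe sets the classes overlapped in every case. The share of all probe sets on the array with such overlap was not counted, so this is no trait of the family. Ms4a3 and the tested Ms4a4b probe set each fell into a bright and a dim set of arrays.

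**Figure D1:**
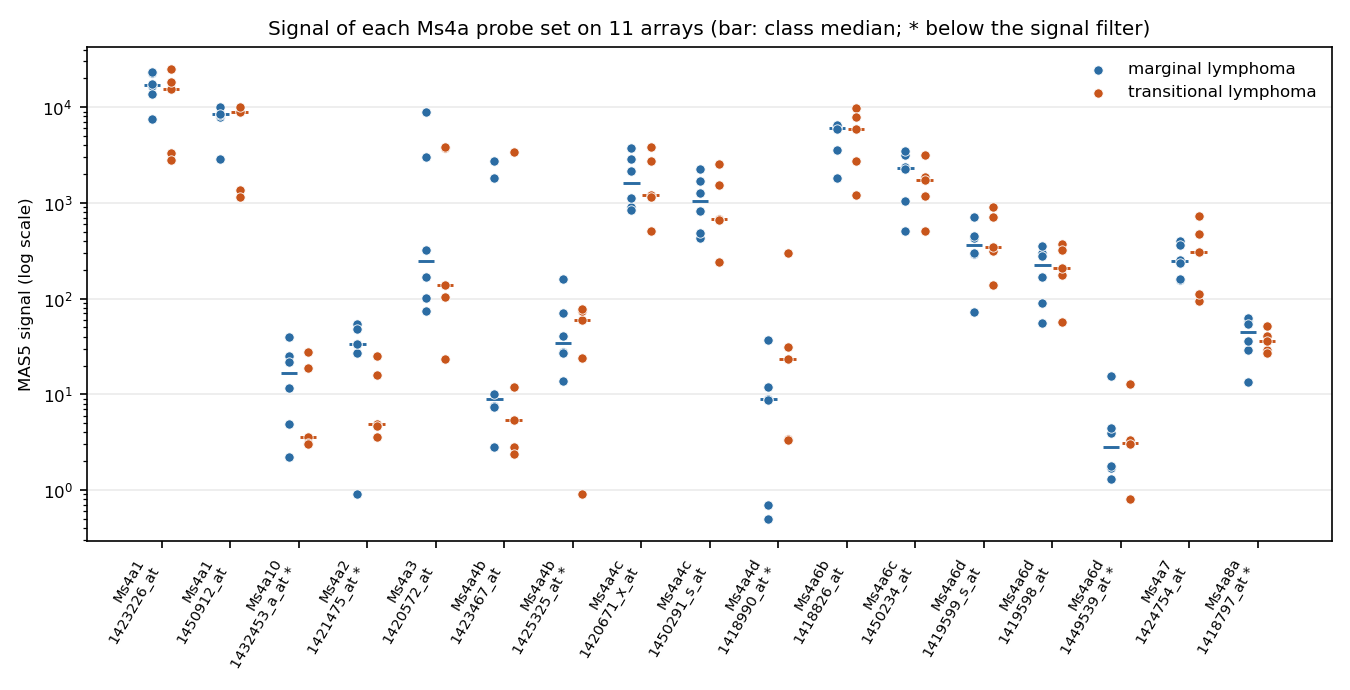
MAS5 signal (log axis) of each Ms4a probe set, with 1 point for each of 6 marginal (blue) and 5 transitional (orange) lymphomas and a bar at the class median. Probe sets marked with * lay below the signal filter. Ms4a3 spans 23.2 to 8900 and the tested Ms4a4b probe set 2.4 to 3430. The 2 classes overlap for every probe set drawn, and the share over the whole array was not counted.

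Ms4a1, the CD20 gene, was high in 8 of the 11 lymphomas on both of its probe sets. On the brighter the lowest, median and highest marginal signals were 7589, 17090 and 23162, with the lowest on marginal 1. The transitional signals were 15621, 18155, 24757, 3313 and 2812 for transitional 1 to 5. Transitional 4 and 5 were thus below every other array, and transitional 3 was above them all. The second probe set gave 2908 on marginal 1, 1367 and 1139 on transitional 4 and 5, and 7855 to 10088 on the other 8 arrays, and the probe sets ran together over arrays (Pearson r = 0.98).

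The lineage score closest to Ms4a1 was that of B cells (14 tested genes, none from the family), with r = 0.94 and a Spearman rho of 0.76. Much of this relation rested on a pair of arrays: without transitional 4 and 5, which are also the 2 arrays farthest from the median score, r was 0.64. Within the 6 marginal lymphomas r was 0.83. The T cell (r = 0.78) and natural killer and cytotoxic (0.70) scores came next over all arrays. On the second probe set the B cell r was 0.91, or 0.49 without transitional 4 and 5. By rho that probe set was closer to the cytotoxic score (0.71) than to the B cell score (0.66). All these correlations are over arrays that share scaling and overall cell makeup, so they are descriptions only. The brightest genes of the B cell list were Cd79a (910 to 16736) and Cd79b (736 to 22215), the signalling chains of the B cell receptor, and both were lowest on transitional 5 and highest on marginal 4. Among 7750 genes outside the family, those most like Ms4a1 over the 11 arrays were Man1a, a mannosidase of glycoprotein processing (r = 0.99), Slc50a1, a sugar transporter (r = 0.98), and Rab4b, a small GTPase of endosomes (r = 0.98).

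Ms4a3 ran against Ms4a1 in part (rho = −0.64) and had a wider range. Its signal was 8900 on marginal 1, 3050 on marginal 3, 3765 on transitional 4 and 3846 on transitional 5. On the other 7 arrays it lay between 23.2 (transitional 1) and 325 (marginal 2), leaving a gap of 9.39-fold between both sets of arrays. The bright set held 2 lymphomas of each class. Spread over arrays (SD 2.73 in log2) exceeded that of 99.9% of tested probe sets.

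Ms4a3 followed the granulocyte precursor score (5 tested genes) with r = 0.99 and rho = 0.94 over 11 arrays, 0.99 without transitional 4 and 5, 0.99 within the marginal class and 0.90 within the 7 dim arrays alone. Mpo, the myeloperoxidase of granules, spanned 47.2 (transitional 1) to 21288 (marginal 1), and Elane, neutrophil elastase, 49.3 to 15308 on the same 2 arrays. The most alike genes were Elane (r = 0.99), Ctsg (cathepsin G, r = 0.99) and Prtn3 (proteinase 3, r = 0.99), granule proteases that are themselves in that marker list. The next scores were neutrophil (r = 0.88), erythroid (0.87) and mast cell and basophil (0.84). S100a8 (3125 to 35663) and S100a9 (3926 to 36493) were the brightest neutrophil markers, and Alas2 (233 to 18342) and Slc4a1 (455 to 14927) the brightest erythroid ones. Between Ms4a1 and Ms4a3 r was −0.77, and −0.77 without transitional 4 and 5.

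**Figure D2:**
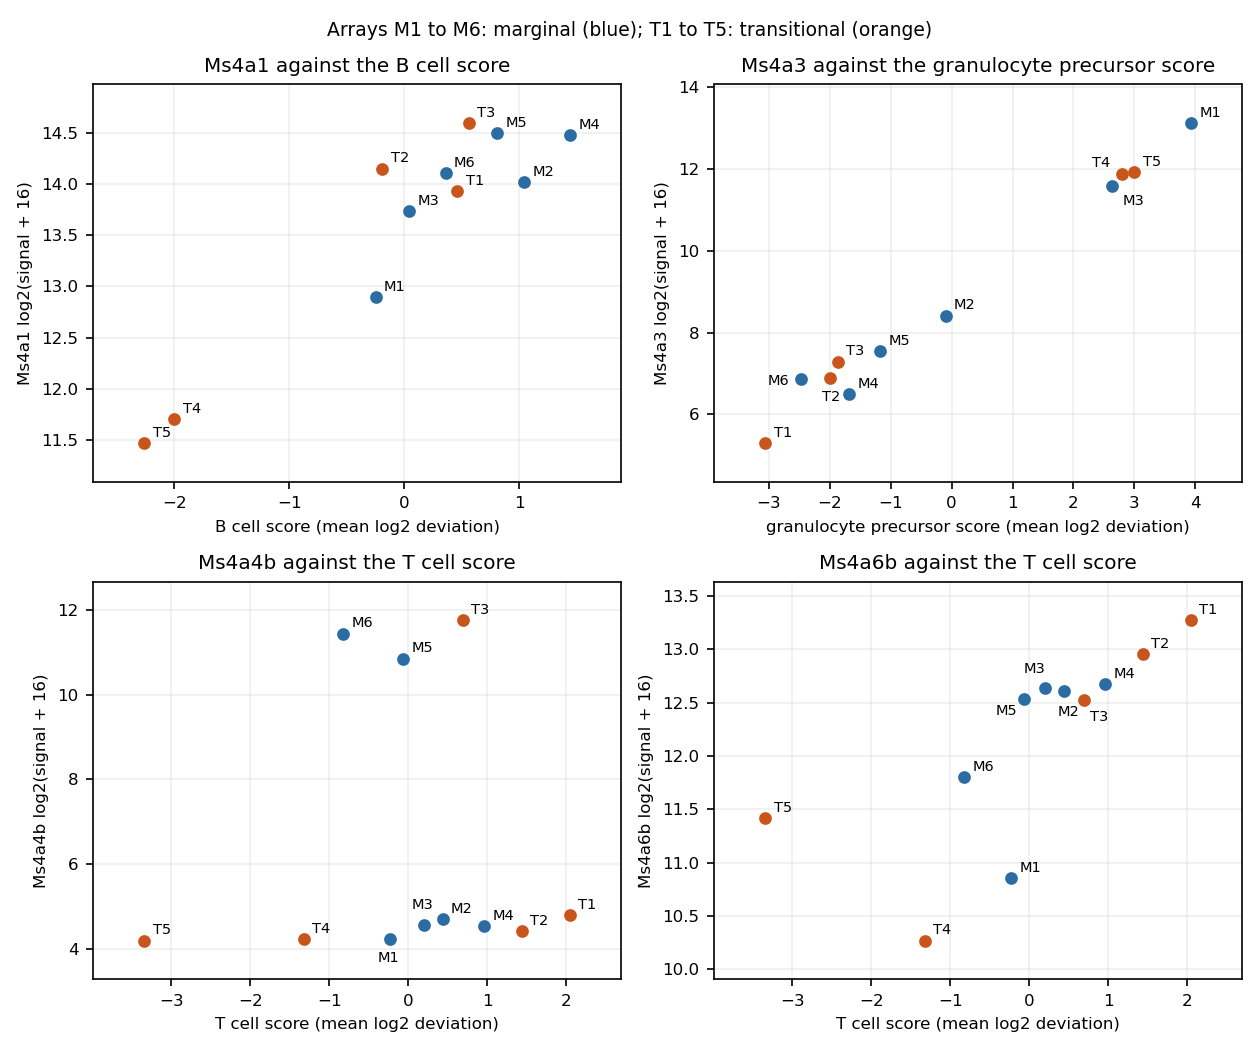
Scatter plots of log2(signal + 16) of a member against a lineage score (mean log2 deviation of the marker genes), 1 point per array, with M1 to M6 marginal (blue) and T1 to T5 transitional (orange). Ms4a3 lies along a line with its score (r = 0.99), Ms4a1 spans a line set partly by T4 and T5, and Ms4a4b is bright on M5, M6 and T3 at T cell scores of −0.06, −0.82 and 0.69.

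Ms4a4b was the most uneven member. Its tested probe set gave a signal of 1825 on marginal 5, 2749 on marginal 6 and 3430 on transitional 3, and on the other 8 arrays it did not pass 11.9. No array lay in the 153-fold gap between 11.9 and 1825. Its SD over arrays was 3.23 in log2(signal + 16), where the gap was 6.04. The dim signals all lay below the added 16, so both values depend on that offset. The fold rests on signals that may not exceed background. The median over the 11 arrays was 7.6, while the lowest mean of a tested probe set was 72.9. The probe set thus passed the mean signal filter only through its 3 bright arrays. A second probe set, below the filter, gave 160 on marginal 5, 71.4 on marginal 6 and 78.8 on transitional 3, and 0.9 to 74.9 on the other arrays, so its sets overlapped. For the second probe set transitional 2 (74.9) was above marginal 6.

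The bright Ms4a4b arrays were not those with the highest T cell scores, though single T cell markers differed. T cell scores were highest on transitional 1 (2.05), transitional 2 (1.44) and marginal 4 (0.96), and Ms4a4b on these arrays was 11.9, 5.4 and 7.3. On the bright arrays marginal 5, marginal 6 and transitional 3 the T cell scores were −0.06, −0.82 and 0.69, and the B cell scores 0.81, 0.36 and 0.56. B cell scores were highest on the dim arrays marginal 4 (1.44) and marginal 2 (1.04), where Ms4a4b was 7.3 and 10.1. Cd3d, a chain of the T cell receptor complex, spanned 30.9 (transitional 5) to 8923 (transitional 1). Cd2, an adhesion receptor of T and NK cells, spanned 170 (transitional 5) to 5964 on transitional 3, a bright Ms4a4b array. On marginal 5, marginal 6 and transitional 3, Cd3d was 1050, 985 and 5414, and Cd2 was 3018, 2776 and 5964. Because arrays form separate sets for this gene, no pooled correlation is given. The genes ranked most like it were Mtmr14, a phosphoinositide phosphatase, at 937 to 1077 on the 3 bright arrays and 486 to 653 on the other 8, Fgd6 at 460 to 838 against 115 to 218, and Nat9 at 211 to 227 against 132 to 169. These 3 genes were picked for that pattern. The 3 bright tumours differed in class, in spleen grade (moderate, moderate and mild) and in clinical sign (haunch tumor, paralysis and failure to nest).

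Ms4a4c, whose promoter is 88.5% identical to that of Ms4a4b over the stretch above, did not share its pattern. On its brighter probe set, which has an _x_at suffix, the lowest, median and highest marginal signals were 840, 1632 and 3744, and the transitional signals were 3796, 1222, 2733, 514 and 1153. Of the 3 arrays bright for Ms4a4b, marginal 6 had the lowest Ms4a4c signal of its class (840), marginal 5 had 1120, and transitional 3 had 2733. The arrays highest for Ms4a4c, transitional 1 and marginal 4 (3796 and 3744), were dim for Ms4a4b. An _x_at suffix marks a probe set whose probes may also bind related transcripts and an _s_at suffix one shared by several transcripts. The other probe set of the gene, with an _s_at suffix, ran with it (r = 0.99).

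The first-ranked lineage of Ms4a4c depended on the measure. By Pearson r over the 11 arrays the plasma cell score came first (r = 0.80, or 0.94 without marginal 1), before the dendritic (0.72), B cell (0.67) and T cell (0.62) scores. By Spearman rho the T cell score was above the plasma cell score (0.81 against 0.72), and within the 6 marginal lymphomas the T cell r was 0.93, the cytotoxic 0.77, the dendritic 0.76, the B cell 0.68 and the plasma cell 0.64. Xbp1, a transcription factor of secretory cells, spanned 2808 to 11860, and Jchain, the joining chain of polymeric immunoglobulin, 1248 to 27728, with the latter highest on marginal 4. Among dendritic markers Ccr7 spanned 147 to 1948 and Irf8 485 to 4965, both lowest on transitional 4 and highest on marginal 4. The most alike genes were Casp6, a caspase (r = 0.91), Kmo, an enzyme of tryptophan breakdown (r = 0.91), and Slc30a4, a zinc transporter (r = 0.89).

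Ms4a6b was high in most lymphomas of both classes. The marginal signals were 1840 at the lowest, on marginal 1, 5927 and 6217 at the middle, and 6512 at the highest. The transitional signals were 9886, 7946, 5866, 1219 and 2720. Transitional 1 and 2, of severe spleen grade, were above every other array, while marginal 1 and transitional 4 and 5 were the lowest. The arrays followed the natural killer and cytotoxic score (r = 0.77, rho = 0.86) and the T cell score (r = 0.73, rho = 0.89), and the B cell score at r = 0.71, which was 0.36 without transitional 4 and 5 while the T cell value was 0.76. Within the 6 marginal lymphomas the order was the other way, with r = 0.71 for the B cell, 0.61 for the cytotoxic and 0.60 for the T cell score. The brightest cytotoxic markers, Nkg7 (334 to 3632) and Ccl5 (212 to 21243), peaked on transitional 1 and transitional 2. The most alike genes were Atad1 (r = 0.91), Ifi47, an interferon-induced GTPase (r = 0.91), and Golga4, a Golgi protein (r = 0.91).

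Ms4a6c, its neighbour, shared less with any list. Its marginal signals were 505 at the lowest, 2293 at the median and 3522 at the highest, and its transitional signals 1189, 1865, 3178, 509 and 1742. Marginal 1 and transitional 4 were the lowest arrays and marginal 5 the highest. No lineage score passed r = 0.39, that of B cells, which was 0.18 without transitional 4 and 5. Its correlation with Ms4a6b was r = 0.63 but rho = 0.24. Cklf, a chemokine-like factor (r = 0.88), Aim2, a sensor of cytosolic DNA (r = 0.88), and Zfp445, a zinc finger protein (r = 0.87), were most like it. Aim2 spanned 18.8 to 441 and was, like Ms4a6c, lowest on marginal 1 and highest on marginal 5.

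The brightest probe set of Ms4a6d, a member known from macrophages, has an _s_at suffix, so it may be shared by several transcripts. Its highest signals were on transitional 2 (909), transitional 5 (713) and marginal 3 (704), and its lowest on marginal 6 (71.8) and transitional 1 (138). Marginal signals had a median of 362, and transitional 3 and 4 had 318 and 349. A second tested probe set (55.1 to 375) ran with it (r = 0.93), and the third stayed at 0.8 to 15.7. The scores nearest to it were megakaryocyte and platelet (r = 0.67), monocyte (0.65) and macrophage (0.65). By rho the macrophage score was highest (0.65, against 0.49 and 0.42), and on the second tested probe set it came first by both measures (r = 0.67, rho = 0.72). Within the marginal class the macrophage r was 0.38 for the brightest probe set, below the plasma cell (0.68) and dendritic (0.62) scores among others. For the second tested probe set it was 0.51 there, below the erythroid score (0.60) among others. Csf1r, the receptor that macrophages need for survival, spanned 508 (transitional 1) to 10089 (transitional 2), and Vcam1, an adhesion molecule, 70.1 to 8522. For monocytes, Lyz2, lysozyme, spanned 1962 to 20761 and Ctss, cathepsin S, 3765 to 15768. The platelet chemokines Pf4 (160 to 1963) and Ppbp (44.8 to 2006) were lowest on transitional 1 and highest on transitional 2. Genes most like Ms4a6d were Mefv, the pyrin gene (r = 0.85), Pla2g4a, a phospholipase (r = 0.85), and Plaat3 (r = 0.84).

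Ms4a7, known from macrophages, ran more closely with the cytotoxic and T cell lists than with the macrophage list in these tumours. Its marginal signals were 155, 246 and 400 at the lowest, median and highest, and the transitional signals were 309, 722, 469, 95.4 and 111. Transitional 2 was highest, and transitional 4 and 5 were below every other array. With the macrophage score r was 0.29 (rho −0.05), against 0.83 for the natural killer and cytotoxic score and 0.79 for the T cell score. The stroma and collagen score came next (0.62), followed by the B cell score (0.60). Without transitional 4 and 5 the macrophage value was 0.44, the cytotoxic 0.74, the T cell 0.68 and the stroma 0.68. Within the marginal class macrophage r was 0.07 and stroma r −0.12, against 0.74 for the cytotoxic and 0.79 for the T cell score. Most like it were Lag3, an inhibitory receptor of activated T cells (r = 0.94), Batf, a transcription factor of activated lymphocytes (r = 0.94), and Gng2, a G protein subunit (r = 0.93). Transitional 2 also had the highest stroma score, with Col1a2 at 1741 against a low of 35.1 and Cxcl13, a chemokine of B cell follicles, at 6698 against 25.4, and the part of these cells in the Ms4a7 signal was not tested.

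**Figure D3:**
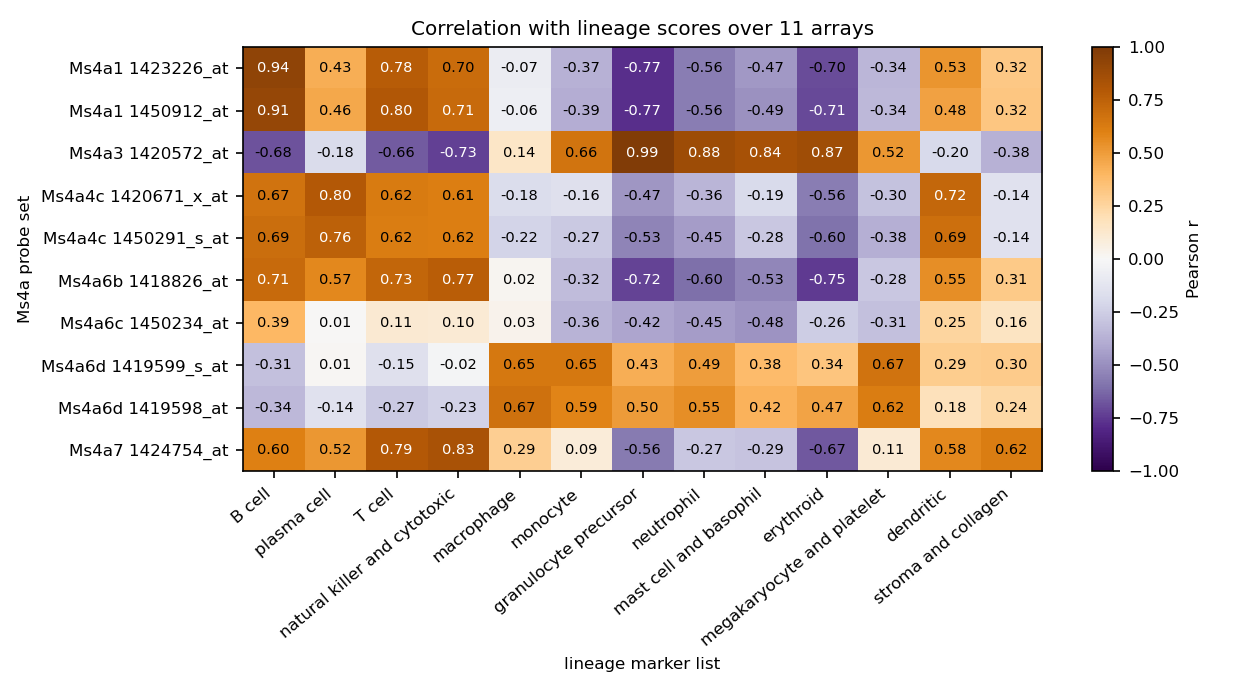
Pearson r between log2(signal + 16) of the tested Ms4a probe sets (rows) and 13 lineage scores (columns) over the 11 arrays, as colour and number. Ms4a1 is highest with B cells (0.94 and 0.91), Ms4a3 with granulocyte precursors (0.99), and Ms4a6b and Ms4a7 with the cytotoxic list (0.77 and 0.83). Ms4a4b is left out because its arrays fall into separate sets.

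The remaining members were dim. Ms4a2, the IgE receptor beta chain, gave 0.9 to 54.6, with the highest value on marginal 1, where the mast cell and basophil score was also highest (2.12). Marginal 6 was lowest for both (0.9 and −1.39). Other arrays did not all keep that order: marginal 4 gave 47.9 at a mast cell and basophil score of −0.15, and transitional 4 gave 4.7 at 0.58. Only 4 of 13 genes of that list were tested, and its defining markers Cpa3 (1.4 to 103), Fcer1a (2.4 to 94.0) and Mcpt4 (1.4 to 82.0) lay below the filter. Kit, the stem cell factor receptor (49.2 to 542), and Hdc, the enzyme that makes histamine (30.3 to 1453), were its brightest tested genes. Ms4a4d was 296 on transitional 2 and at most 37.3 elsewhere, and transitional 2 was the array with the highest stroma (4.41) and macrophage (2.22) scores. Whether those cells hold the Ms4a4d transcript was not tested. Ms4a8a spanned 13.5 to 63.0 and Ms4a10 2.2 to 40.1.

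Members also differed in how they ran together. Ms4a6b and Ms4a7 had r = 0.83 (0.71 without transitional 4 and 5), Ms4a4c and Ms4a6b 0.79 (0.66), and Ms4a1 and Ms4a6b 0.79 (0.64). Ms4a3 ran against Ms4a6b (r = −0.76) as well as Ms4a1. Over the 11 arrays Ms4a6d was nearly unrelated to Ms4a4c (r = −0.04) and Ms4a6b (r = 0.06). Without transitional 4 and 5 these values were 0.045 and 0.263, and within the marginal class 0.495 and 0.447.

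**Figure D4:**
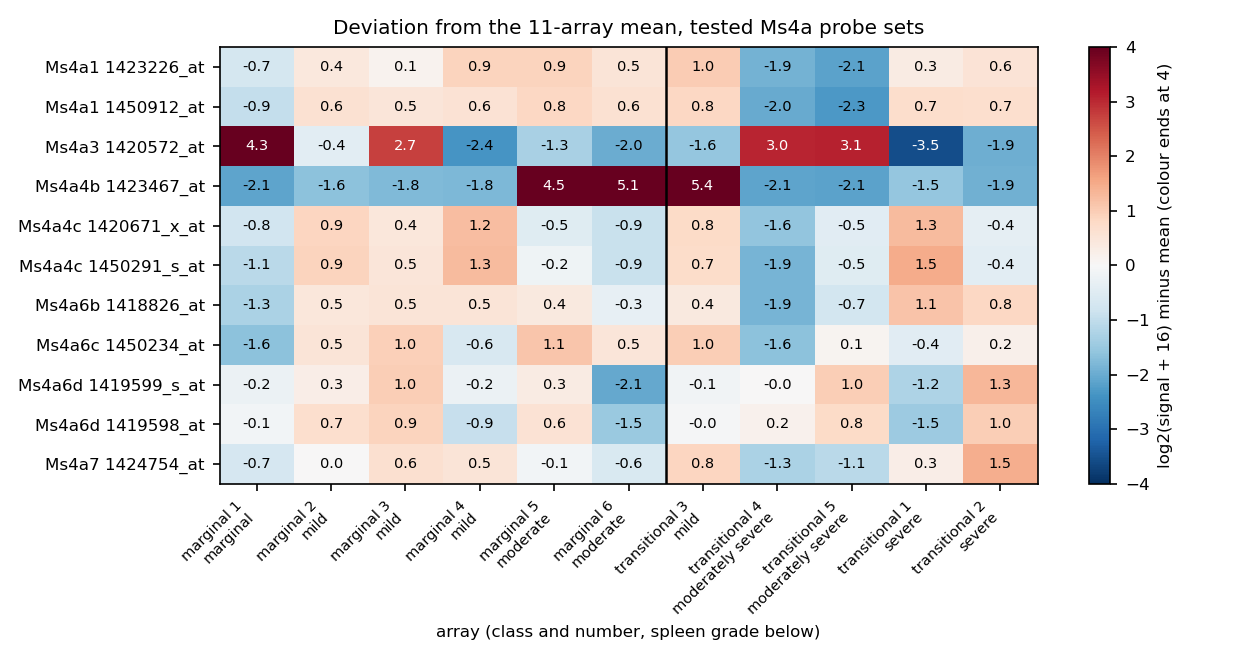
Deviation of log2(signal + 16) from the 11-array mean for the 11 tested Ms4a probe sets (rows) on each array (columns, ordered by class and spleen grade, with a line between classes). Colour ends at 4 in either direction. Ms4a3 is high on marginal 1 and 3 and transitional 4 and 5, Ms4a4b on marginal 5 and 6 and transitional 3, and Ms4a1 is lowest on transitional 4 and 5.

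The study's design divides the lymphomas by severity, and no Ms4a gene differed between classes beyond the spread of the arrays. Of the 13576 tested probe sets, 0 passed limma's test at an adjusted p of 0.05 (percent called: 0), and 0 of the 11 Ms4a probe sets did. At an unadjusted p below 0.05 there were 446 of all tested and 0 of the family. On the brightest probe set of each of the 8 tested genes, transitional minus marginal was negative for 6 and positive for 2, with a median of −0.21 in log2, while the median over all tested probe sets was −0.05. The mean Ms4a1 signal was 16886 ± 5855 over the 6 marginal arrays (SD, n = 6). Over the 5 transitional arrays it was 12932 ± 9608 (SD, n = 5). Its log2 difference was −0.79 (SE 0.57, 95% interval −2.02 to 0.45, limma adjusted p = 0.9994). The differences were −0.84 (SE 1.77) for Ms4a4b, −0.35 (SE 1.501) for Ms4a3 and −0.29 (SE 0.55) for Ms4a6c. They were −0.13 (SE 0.54) for Ms4a4c, −0.10 (SE 0.53) for Ms4a6b, 0.08 (SE 0.48) for Ms4a7 and 0.35 (SE 0.55) for Ms4a6d, each at a limma adjusted p of 0.9994. The intervals of Ms4a3 (−3.61 to 2.92) and Ms4a4b (−4.68 to 3.004) leave room for changes of many fold either way.

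The difference for 5 of these genes changed sign without transitional 4 and 5, the arrays with the lowest B cell scores. It became 0.27 for Ms4a1, 0.27 for Ms4a4b, 0.50 for Ms4a4c, 0.73 (SE 0.39) for Ms4a6b and 0.11 for Ms4a6c. For Ms4a7 it was 0.89 (SE 0.35) and for Ms4a3 −2.51 (SE 1.34), and none of these passed the limma test (smallest adjusted p = 0.5255, for Ms4a7).

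**Figure D5:**
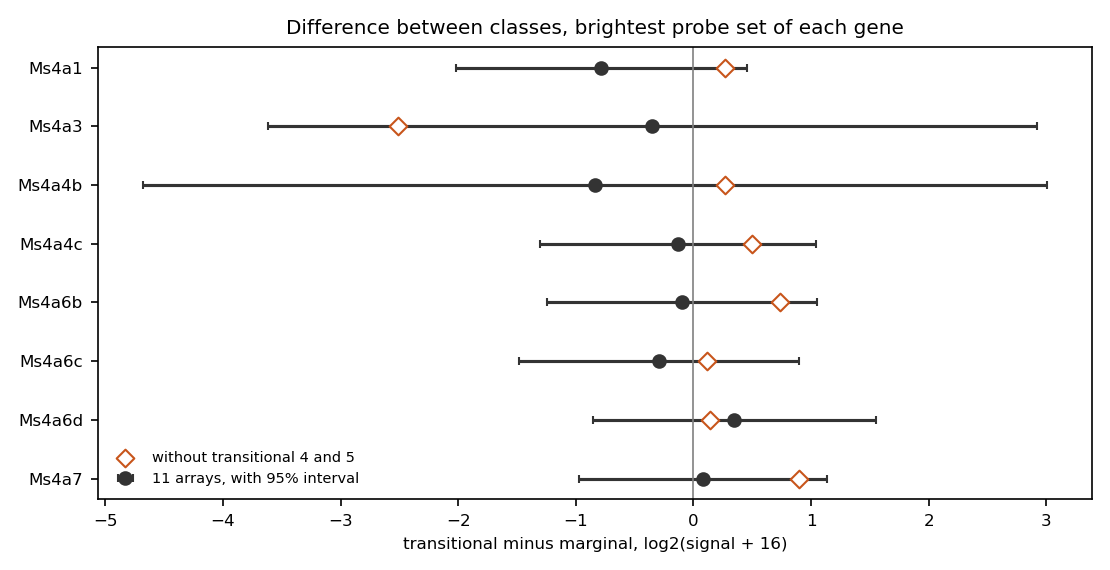
Difference between classes (transitional minus marginal, log2(signal + 16)) for the brightest tested probe set of 8 Ms4a genes, as points with 95% intervals for 11 arrays and open diamonds without transitional 4 and 5. Every interval includes 0, and Ms4a1, Ms4a4b, Ms4a4c, Ms4a6b and Ms4a6c cross 0 without these arrays.

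Spleen grade, ranked from 1 to 5, gave the same count, with 0 of 13576 probe sets passing (percent called: 0, with 295 at an unadjusted p below 0.05) and 0 of 11 in the family. Slopes per grade step were −0.66 (SE 0.55) for Ms4a3, −0.40 (SE 0.68) for Ms4a4b, −0.18 (SE 0.23) for Ms4a1 and 0.11 (SE 0.20) for Ms4a6b, and the other 4 genes lay between −0.11 and 0.04, all at a limma adjusted p of 0.9997. The means were not ordered by grade. Ms4a1 averaged 7589 on the single array of marginal grade, 19419 over 4 of mild, 20403 over 2 of moderate, 3063 over 2 of moderately severe and 16888 over 2 of severe grade. Ms4a3 averaged 8900, 897, 135, 3806 and 63.2 in the same order, and Ms4a6b 1840, 6239, 4744, 1970 and 8916. Grade and class ran together over the arrays (r = 0.71), so both fits draw on overlapping differences between arrays.

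A list of 25 genes gave the proteins that work with MS4A members and the regulators of their lineages: chains and kinases of the B cell receptor and IgE receptor, and transcription factors such as Pax5, Spib, Spi1 and Gata1. Of these, 22 were on the array and 21 were tested. Between classes 18 had a lower and 3 a higher transitional mean, with 0 called (0% of all tested) and a median of −0.84, against −0.05 over all tested probe sets, of which 42.7% were higher. For spleen grade all 21 slopes were negative, with 0 called and a median of −0.25, against −0.01 over all tested probe sets, of which 45.4% were positive. Many of the list are B cell genes such as Cd79a and Cd79b, whose lowest signals were on transitional 4 and 5. Both counts were smaller without these arrays, which had the lowest B cell scores, and the cause was not tested. With them left out, an alternative chosen after seeing the data, 11 of 21 were lower and 10 higher between classes (median −0.0021), and 15 of 21 slopes were negative (median −0.02). Over all tested probe sets 52.3% were then higher between classes (median 0.0168), and 54.5% of slopes were positive (median 0.0139). The Ms4a1 difference moved alike, from −0.79 to 0.27. Fcer1g, the gamma chain that pairs with Ms4a2 in the IgE receptor, was measured at 87.4 to 2881 and differed by 0.43 (SE 0.79). Spib, a B cell factor, differed by −1.31 (SE 0.66), and Cebpa, a factor of granulocyte precursors, by 0.46 (SE 0.68), neither passing the test (limma adjusted p = 0.9994 for each).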

How the data were processed

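Total RNA of 6 marginal and 5 transitional lymphomas was hybridised to 1 array each. The deposited values are linear array intensities, summarised by MAS5, as the submitters' processing notes say, without a version. Their 2% trimmed mean was 499.9 on every array. The file held 22690 probe sets. After 64 controls were left out, 16 was added before log2 and the upper 60% of 22626 by mean signal were tested. Gene symbols were taken from the GEO platform table and brought up to date through RefSeq (20380 probe sets had 1 gene, 691 several, 1555 none). limma 3.58.1 in R 4.3.3 (lmFit, eBayes with trend, two-sided, Benjamini-Hochberg over all tested) compared the classes and fitted spleen grade ranked 1 to 5, and was tested on simulated data. Promoters were aligned with biopython 1.88.

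The members, lists and tests were chosen with earlier results of these data known. Every Ms4a probe set is named, with the 2 brightest genes of each lineage list and the 3 genes most correlated with each tested member. The genes of the flow label, and Fcer1g, Spib and Cebpa, were added after their values were seen. Nothing says that the samples are independent cultures or litters, so p-values measure only the spread between them, and no batch record was used. Alternatives were offsets of 1 and 64, 2 other scalings, no filter and the upper 40%, no trend, array weights, leaving out arrays, class in the grade model, the partners list without transitional 4 and 5, and the sample number as a block. The block was not kept: correlations of same-numbered samples' deviations were −0.45 to −0.09.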

Additional observations from a re-analysis of the deposited data

Results flagged for a closer look

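Each class of 5 or 6 arrays was screened, for each of the 11 tested Ms4a probe sets, for a sample far from the rest. The cutoff would mark about 1 in 20 groups of independent, normally distributed values, and 2 of 22 were marked. Probe sets of the same gene ran together and the family was selected on these signals, so the count cannot be judged against that rate. On the dimmer Ms4a1 probe set, marginal 1 was the lowest of its class at 2908, with a gap to the next array that made up 0.799 of the range of the class on the log2(signal + 16) scale. The brighter Ms4a1 probe set was also lowest there within the class (7589). For Ms4a4b, transitional 3 was the highest of its class at 3430, with a gap of 0.92 of the range on the same scale. Marginal 5 (1825) and marginal 6 (2749) were bright for this gene too.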

How the results depend on the processing

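The count of probe sets passing the limma test stayed at 0 for both comparisons under all alternatives, and no Ms4a gene passed under any (smallest adjusted p = 0.5255 for a class difference and 0.3729 for a slope). Signs were not stable: of 168 refitted class differences of 8 genes 28 turned sign, and of 176 slopes 22 did, while the slopes of Ms4a3 and Ms4a4b kept their sign but not their size. Without transitional 4 and 5, class differences turned to 0.27 (Ms4a1), 0.73 (Ms4a6b), 0.11 (Ms4a6c), 0.50 (Ms4a4c) and 0.27 (Ms4a4b), and slopes to 0.11 (Ms4a1), 0.0861 (Ms4a6c), 0.0304 (Ms4a4c) and −0.0278 (Ms4a6d). Array weights turned the class differences of Ms4a6b (0.28), Ms4a6d (−0.0778) and Ms4a4b (0.64) and the slope of Ms4a6d (−0.0647). Scaling to the same median turned the class difference of Ms4a6b (0.027) and the slope of Ms4a6c (0.0023). With class in the model, slopes turned for Ms4a1 (0.0736), Ms4a6c (0.10) and Ms4a6d (−0.11). The causes were not tested. The sample numbers do not pair the arrays. With the replicate block the counts stayed at 0, the class differences of Ms4a6d (−0.0324), Ms4a7 (−0.0347) and Ms4a4b (0.10) and the slope of Ms4a6c (0.0277) turned, and marginal 6, without a partner, added nothing to the class values.

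Leaving out 1 array at a time, class differences ran from −1.14 (without transitional 3) to −0.36 (without transitional 5) for Ms4a1, and from −1.16 to 0.49 for Ms4a3, −0.27 to 0.41 for Ms4a7, −0.47 to 0.25 for Ms4a4c, −0.0324 to 0.71 for Ms4a6d, −2.31 to 0.10 for Ms4a4b, −0.39 to 0.36 for Ms4a6b and −0.65 to 0.0783 for Ms4a6c. Slopes ran from −0.0608 to 0.24 for Ms4a6b, −0.20 to 0.11 for Ms4a7, −0.31 to 0.0752 for Ms4a6c and −0.16 to 0.26 for Ms4a6d. The Ms4a3 slope ran from −0.90 to −0.18 (without marginal 1), that of Ms4a4b from −0.87 (without marginal 1) to −0.0707 (without transitional 3), and that of Ms4a1 from −0.36 (without marginal 1) to −0.0552 (without transitional 5). Of 119 recomputed lineage correlations 115 stayed within 1 standard error, and the exceptions were rho for Ms4a1 (0.76) and Ms4a3 (0.94), Ms4a1 without transitional 4 and 5 (0.64) and Ms4a4c without marginal 1 (0.94). No detection calls were used here, so it is unknown whether the lowest signals (Ms4a2, Ms4a8a, Ms4a10, Ms4a4d apart from its 296 on transitional 2, and the dim Ms4a4b arrays) exceed background, and a fold against them is uncertain.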
